A study of Mus musculus with 4 samples.

Results

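The metabolic nuclear receptors of liver are taken here as 9 genes named by symbol: Ppara, Rxra, Nr1i2, Nr1i3, Nr5a2, Nr1h3, Esr1, Nr3c1 and Thrb. All 9 were among the 8797 genes listed with an expression value, and 3 of them (Nr1i2, Nr5a2 and Nr3c1) were among the 3632 genes with a B6-allele frequency in every mouse. The mRNA came from whole liver of 4 F1 hybrid females, each aged 5 months, between the inbred strains C57BL/6J (B6) and MSM/Ms (MSM), which descend from different mouse subspecies. In 2 mice the mother was MSM and the father B6 (MSM-mother mice), and in 2 the reverse held (B6-mother mice), so all 4 mice carried 1 B6 and 1 MSM copy of each autosome and X chromosome. Expression was given in FPKM, the mapped fragments scaled to transcript length and to library size, which allows levels of different genes to be set side by side. The B6-allele frequency was the fraction of allele-assigned reads of a gene that carried the B6 allele, with 0.5 for equal expression of both alleles. The reads behind single values were not given, so the precision of each value is known only from its spread over mice.

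Nuclear receptors are transcription factors whose activity is set by a small lipophilic ligand, such as a fatty acid, an oxysterol, a bile acid, a drug or a hormone. RXRA is the shared dimerization partner of many of them, and each dimer reads a pair of hexamer half-sites in DNA, while the glucocorticoid receptor binds an inverted repeat as a homodimer. In hepatocytes they set fatty acid oxidation, lipid synthesis, bile acid production, drug clearance and the response to fasting.

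The half-site letters AGGTCA were searched on both strands of RefSeq promoter windows (GRCm38.p6, the same build as mm10), which run from 250 bases before to 50 bases after a start. Of the receptors, 8 were matched by symbol, with 13 windows in all, and 3 windows held the half-site, compared with 16.3% of 32851 windows of all genes. The 60-base stretches with these letters are shown because they are the element that most of these receptors read, and they lie in the promoters of a receptor itself. Capitals mark the half-site, on the strand of the gene (the complementary letters TGACCT mark it on the other strand). The Rxra window held 2 matches, and only the first lies in the stretch shown. The stretches lie at chr1:136960477-136960536 (minus strand) for Nr5a2, chr2:27709181-27709240 (plus strand) for one of the Rxra starts and chr14:17660752-17660811 (plus strand) for Thrb.
Nr5a2: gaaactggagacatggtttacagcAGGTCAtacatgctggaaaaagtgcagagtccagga
Rxra: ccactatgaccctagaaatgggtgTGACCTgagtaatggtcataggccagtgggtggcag
Thrb: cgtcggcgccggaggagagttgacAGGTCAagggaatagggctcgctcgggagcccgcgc
The half-sites shown began 64 bases before the RefSeq start of Nr5a2, 87 before that of Rxra and 184 before that of Thrb. The stretches of Rxra and Thrb lie inside the gene spans given below, downstream of the first annotated base of the gene. No direct repeat of the half-site with a spacer of 1 to 5 bases was found in the 13 windows, and such repeats were in 0.0396% of all windows for a spacer of 1 and in fewer for the others. A match to letters is a description of the sequence and not evidence of binding.

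By mean level the receptors ranged from Nr1i3, above 91.5% of listed genes, to Esr1, above 34.0%. Rxra (chr2:27676440-27762957, plus strand), the common partner, was at 85.7 and 118 FPKM in the MSM-mother mice and 106 and 110 in the B6-mother mice (mean 105 ± 13.9, SD, n = 4), above 90.4% of listed genes. The first MSM-mother mouse was the lowest, and the ranges of the crosses overlapped. The other RXR genes were lower, with Rxrb at 18.1 to 18.8 FPKM and Rxrg at 7.04 to 8.32, and Rxra made up 76.3%, 82.0%, 80.2% and 81.4% of the summed RXR FPKM of the 4 mice. The 5 listed partners of RXRA among the receptors (Ppara, Nr1i2, Nr1i3, Nr1h3 and Thrb) summed to 278, 316, 263 and 304 FPKM. Rxra was thus 30.8%, 37.5%, 40.3% and 36.1% of the level of its partners combined.

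Of the xenobiotic sensors, Nr1i3 (chr1:171213970-171220701, plus strand) encodes CAR, which induces drug-clearing enzymes. It was at 116 and 136 FPKM in the MSM-mother mice and 103 and 127 in the B6-mother mice (120 ± 14.3, SD, n = 4), with overlapping crosses. The listed gene Tomm40l overlaps Nr1i3 on the other strand. Nr1i2 (chr16:38248323-38294824, minus strand) encodes PXR, the sensor of drugs and bile acids that induces Cyp3a genes. Its values were 47.9 and 59.3 FPKM in the MSM-mother mice and 42.0 and 44.6 in the B6-mother mice (48.4 ± 7.60). Both MSM-mother mice were above both B6-mother mice. The ratio of Nr1i3 to Nr1i2 was 2.42, 2.29, 2.44 and 2.85, so CAR transcripts exceeded those of PXR in every mouse.

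Of the lipid sensors, Ppara (chr15:85734983-85802819, plus strand) encodes the fatty acid receptor that induces fatty acid oxidation in fasting. It was at 38.6 and 47.8 FPKM in the MSM-mother mice and 42.6 and 57.8 in the B6-mother mice (46.7 ± 8.29), and the crosses overlapped. Nr1h3 (chr2:91184061-91202834, minus strand) encodes LXR alpha, the oxysterol receptor that induces sterol export and fatty acid synthesis. It was at 67.3 and 62.5 FPKM in the MSM-mother mice and at 66.1 and 64.6 in the B6-mother mice (65.1 ± 2.07). Its coefficient of variation, 3.18%, was the smallest of the 9 receptors, and its SD on the log2 scale was above that of 4.14% of listed genes. Nr1h3 was 2.66, 2.87, 2.47 and 2.25 times the level of Nr1h2, which encodes LXR beta. Nr5a2 (chr1:136842571-136960448, minus strand) encodes LRH-1, a receptor that binds DNA as a monomer and acts on bile acid and cholesterol genes. It was at 15.6 and 16.9 FPKM in the MSM-mother mice and 19.8 and 19.1 in the B6-mother mice (17.8 ± 1.93). Both MSM-mother mice were lower.

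Nr3c1 (chr18:39410545-39519421, minus strand) encodes the glucocorticoid receptor, which induces gluconeogenic genes. It was at 19.3 and 20.8 FPKM in the MSM-mother mice and 25.0 and 22.2 in the B6-mother mice (21.8 ± 2.46), again with both MSM-mother mice lower. Thrb (chr14:17660261-18038090, plus strand), the main thyroid hormone receptor gene of hepatocytes, was at 8.72 and 10.4 FPKM in the MSM-mother mice and 9.80 and 9.62 in the B6-mother mice (9.63 ± 0.685). The crosses overlapped, and Thrb was 2.07, 2.52, 1.83 and 1.86 times the level of Thra. Esr1 (chr10:4611593-5005614, plus strand), which encodes estrogen receptor alpha, was the lowest receptor at 5.23 and 7.54 FPKM in the MSM-mother mice and 6.82 and 8.93 in the B6-mother mice (7.13 ± 1.54). It was above 34.0% of listed genes, and its coefficient of variation of 21.6% was the largest of the set. The order by mean level was Nr1i3, Rxra, Nr1h3, Nr1i2, Ppara, Nr3c1, Nr5a2, Thrb and Esr1. Neighbours in this order overlapped over the 4 mice for Nr1i3 and Rxra, Nr1i2 and Ppara, Nr3c1 and Nr5a2, and Thrb and Esr1, and the ranges of the other 4 neighbouring pairs were apart. Within mice, Nr3c1 was above Nr5a2 and Thrb above Esr1 in 4 of 4.

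**Figure D1:**
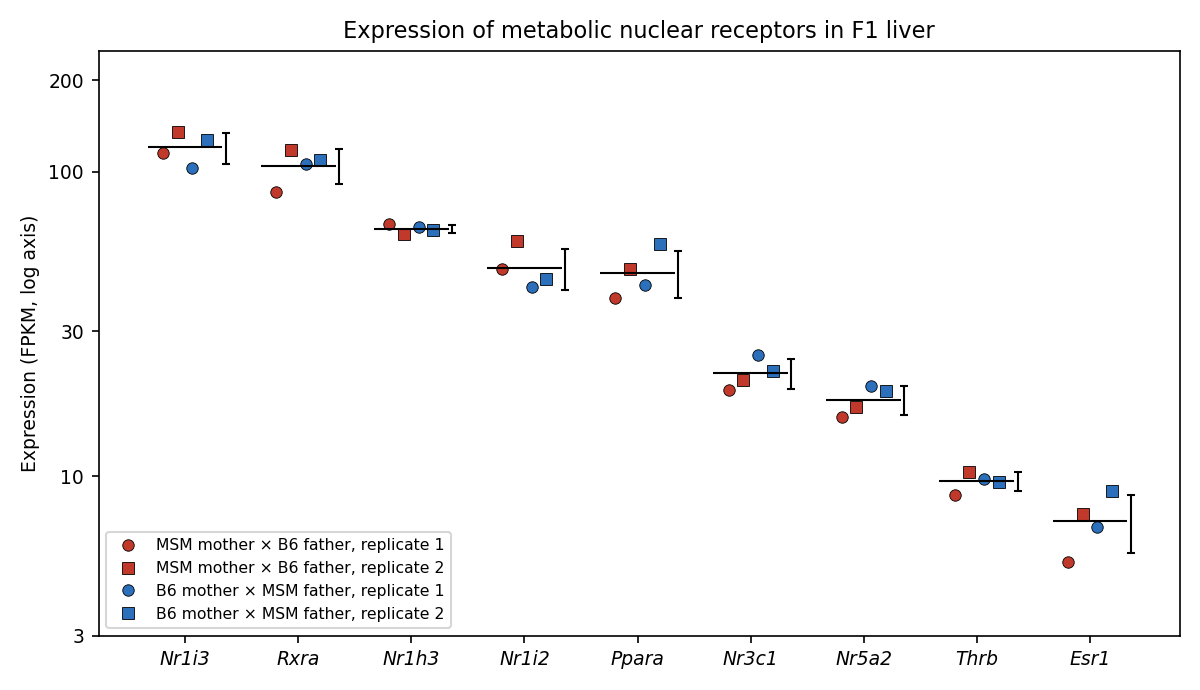
Expression of the 9 receptors (FPKM, log axis) in each of the 4 mice, with points colored by cross, a horizontal line at the mean and a bar for ± 1 SD (n = 4). The receptors run from Nr1i3 with a mean of 120 FPKM to Esr1 with 7.13, and the crosses are apart for Nr1i2, Nr3c1 and Nr5a2.

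The first MSM-mother mouse was the lowest of the 4 for 6 of 9 receptors (Ppara, Rxra, Nr5a2, Esr1, Nr3c1 and Thrb) and for 14 of 17 listed coregulators, compared with 26.6% of all genes. This mouse also differed from the others by transcript length. Its median log2 difference from the mean of the other mice was 0.25 for genes in the shortest length quartile and -0.16 in the longest, and it was -0.22 for the receptors, of which 5 of 9 were in the longest quartile. The part of transcript length in the receptor values was not tested.

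The reciprocal crosses were then compared to ask whether receptor levels depended on which strain was the mother. None of the 9 receptors passed the test between crosses, with 4 of 8797 genes called (0.0455% of all genes) by limma at a Benjamini-Hochberg adjusted p under 0.05, and none had an unadjusted p under 0.05 (8.87% of all genes). The mice of the crosses did not overlap in 3 of 9 receptors, compared with 42.4% of all genes. The p-values measure the spread between these mice only in part. For each gene, limma draws the variance toward that of genes at a similar level, so intervals and p-values also rest on other genes. With 2 against 2 mice an exact permutation test cannot give a p below 0.333.

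The differences are given as log2(FPKM + 1) in MSM-mother mice minus B6-mother mice. Nr1i2 was the receptor farthest above 0, at 0.29 (SE 0.15, 95% interval -0.09 to 0.67, limma adjusted p = 0.603), or 1.22-fold with an interval from 0.942 to 1.59. It was 0.14 without the second MSM-mother mouse and 0.44 without the first. Nr5a2 had the lowest unadjusted p, 0.0764 by limma across all genes, with a difference of -0.24 (SE 0.11, interval -0.52 to 0.04, adjusted p = 0.580). For Nr3c1 the difference was -0.23 (SE 0.13, interval -0.53 to 0.08, limma adjusted p = 0.620). These 3 receptors were those without overlap between the crosses. The interval of Nr1h3 was -0.33 to 0.31 around -0.01, and that of Thrb was -0.33 to 0.27 around -0.03. Wider intervals were found for Rxra (-0.57 to 0.37 around -0.10), Nr1i3 (-0.30 to 0.57 around 0.13), Ppara (-0.69 to 0.28 around -0.20) and Esr1 (-0.76 to 0.21 around -0.27). The estimate for Esr1 was -0.04 without the first MSM-mother mouse and -0.50 without the second. On the fold scale the interval of Nr1h3 ran from 0.793 to 1.24 and that of Thrb from 0.796 to 1.21, so the data did not show equal levels in the crosses.

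**Figure D2:**
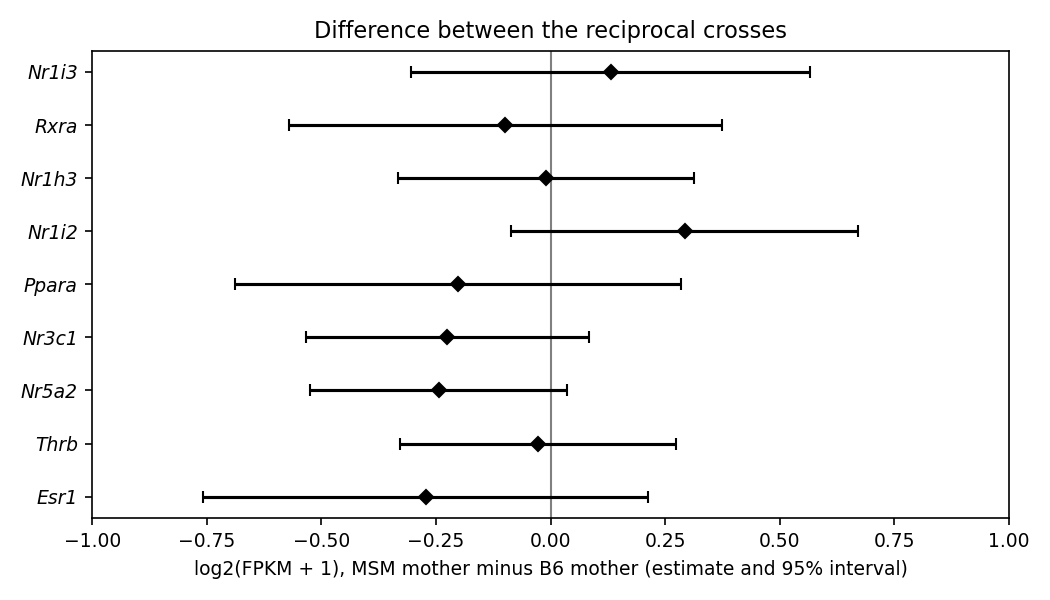
Difference between the reciprocal crosses for each receptor in log2(FPKM + 1), MSM-mother mice minus B6-mother mice, with the limma estimate (diamond) and its 95% interval (bar). All 9 intervals include 0, and those of Nr1i2, Nr5a2 and Nr3c1 reach least past it.

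The label of the tissue was checked with markers of the cell types that liver holds. Of the hepatocyte markers 6 of 7 were listed, and Apoa1, Apoc3 and Ttr were at 2539 FPKM or more in every mouse. The marker not listed was Alb, the albumin gene, so the check rests on the others. Cyp2e1 was listed at 0 in both MSM-mother mice and at 4876 and 6541 FPKM in the B6-mother mice, although a frequency of its B6 allele was listed for each of the 4. The 0 may be a failed estimate, and Cyp2e1 is 1 of the 4 genes called between the crosses. The 5 listed Kupffer cell markers (of 7) summed to 119 and 110 FPKM in the MSM-mother mice and 158 and 146 in the B6-mother mice, with all 5 lower in both MSM-mother mice (19.4% of all genes) and 3 of 5 lower at an unadjusted p under 0.05 by limma (4.41% of all genes). The 7 sinusoidal endothelium markers summed to 137, 132, 148 and 153 FPKM and the 5 listed stellate cell markers (of 7) to 256, 235, 219 and 244. Spp1 was the single listed cholangiocyte marker (of 5), at 9.51 to 14.6 FPKM, and none of the 5 lymphocyte markers was listed. In bulk tissue, fewer cells of a type and less RNA per cell cannot be told apart. The part of the Kupffer cell share in the receptor values was not tested.

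The pathway lists gave the levels of the partners and targets of the receptors. In all, 140 of the 176 names on 12 lists were listed, and 0 were called between the crosses by limma. Among the 19 listed other nuclear receptors, Hnf4a, which encodes the factor that maintains hepatocyte identity, was at 144, 203, 166 and 173 FPKM, above every one of the 9 receptors in each mouse. Nr1h4, which encodes the bile acid receptor FXR, was at 86.8 and 75.9 FPKM in the MSM-mother mice and 56.5 and 65.3 in the B6-mother mice. Nr1d1, the heme-binding clock repressor REV-ERB alpha, was at 37.7 and 21.5 FPKM against 66.7 and 48.2 (log2 difference -0.97, limma adjusted p = 0.469). Coregulators were lower, and the 3 most abundant of 17 listed, Hdac3, Ncor1 and Gps2 of the corepressor complex, were at 15.9 to 18.5, 11.8 to 15.8 and 11.1 to 11.7 FPKM.

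Ligand supply and chaperone genes were led by Fabp1, the liver fatty acid binding protein, at 3432 to 5120 FPKM and by Ttr, the carrier of thyroxine and retinol-binding protein, at 2539 to 4526. Hsd11b1, whose enzyme regenerates active glucocorticoid, was at 713 and 536 FPKM in the MSM-mother mice and 448 and 629 in the B6-mother mice. These crosses overlapped. Among Ppara targets, the omega-hydroxylase gene Cyp4a10 was at 674 to 896 FPKM. Of the 20 listed Ppara targets 2 had an unadjusted p under 0.05 by limma, both higher with an MSM mother (4.46% of all genes), and the median difference was 0.04 on the log2 scale, beside 0.02 for all genes. In 9 of 20 both MSM-mother mice were above both B6-mother mice (23% of all genes), and in 1 both were below (19.4% of all genes).

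The PXR and CAR targets with the highest levels were drug-clearing Cyp genes of families with similar copies, so their split between copies is uncertain. Cyp3a11 was at 2313 and 1748 FPKM in the MSM-mother mice and 818 and 1470 in the B6-mother mice. Its log2 difference was 0.87 (SE 0.33, limma adjusted p = 0.546), without overlap. Cyp2a5 was at 899 to 1760 FPKM and Cyp2c29 at 1218 to 1841, both with overlapping crosses. The LXR targets included 5 of 12 at an unadjusted p under 0.05, 1 higher and 4 lower with an MSM mother (4.41% of all genes were lower at this level). The 4 lower were Srebf1, Mlxipl, Fasn and Pltp, which act in lipid synthesis and lipoprotein handling, and the higher one was Cyp7a1, the rate-limiting enzyme of bile acid synthesis. Srebf1, Fasn and the naming of this set of 5 were chosen after their values were seen. Mlxipl was at 79.9 and 84.4 FPKM in the MSM-mother mice and 141 and 124 in the B6-mother mice (log2 difference -0.68, limma adjusted p = 0.354). Cyp7a1, also a target of LRH-1 and of thyroid hormone receptor, was at 94.0 and 93.9 FPKM against 53.8 and 50.7 (log2 difference 0.83, SE 0.13, limma adjusted p = 0.266). Scd1, the stearoyl-CoA desaturase gene, was at 1274 and 755 FPKM against 649 and 564.

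For LRH-1, the aminotransferase gene Got1 was at 313 and 454 FPKM in the MSM-mother mice and 284 and 265 in the B6-mother mice, and the liver glutaminase gene Gls2 was at 269 to 305. Only 3 of 6 estrogen receptor targets were listed, Igfbp4 at 978 to 1149 FPKM, Xbp1 at 66.7 to 83.8 and Ccnd1, which encodes cyclin D1, at 5.27 and 4.28 FPKM against 9.75 and 17.7 (log2 difference -1.30, SE 0.27, limma adjusted p = 0.340). Of the thyroid hormone receptor targets, Thrsp, a lipogenic gene, was at 126 and 204 FPKM against 55.6 and 84.5, and Dio1, the deiodinase gene, was at 32.2 and 29.1 against 44.8 and 77.1. Thrsp was thus higher and Dio1 lower in both MSM-mother mice, with limma adjusted p of 0.412 and 0.458. Of the retinoid receptor targets, 0 of 5 had an unadjusted p under 0.05 by limma, with Dhrs3, a retinal reductase, at 125 to 182 FPKM, Cyp26a1 at 91.6 to 170 and Cyp26b1 at 2.78 to 7.76. The clock genes Tef and Dbp, output factors of the circadian clock, were at 35.0 to 60.9 and 23.4 to 56.4 FPKM with overlapping crosses. Of the 13 listed clock genes, 1 did not overlap, Nr1d1, lower with an MSM mother (19.4% of all genes). Ciart, chosen after its values were seen, was at 3.85 and 24.5 FPKM against 0.585 and 4.51, with overlap. The part of the clock in the target values was not tested.

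The glucocorticoid receptor targets had the largest median difference of the 12 lists, while Nr3c1 itself had an estimate of -0.23. All 17 were listed, and 9 of 17 had an unadjusted p under 0.05 by limma, each higher with an MSM mother (4.46% of all genes). None was called, and the lowest adjusted p was 0.347. The median log2 difference of the list was 0.99, beside 0.02 for all genes, and 13 of 17 were higher in both MSM-mother mice than in both B6-mother mice (23% of all genes). The lists were chosen with earlier results of these data known, so these shares describe the list and are not an independent test. Without the first B6-mother mouse, which was the lowest of the 4 mice for 13 of 17 targets, 2 of 17 had an unadjusted p under 0.05.

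Pck1, the gluconeogenic enzyme gene, was at 990 and 2045 FPKM in the MSM-mother mice and 405 and 852 in the B6-mother mice (log2 difference 1.27, SE 0.47, limma adjusted p = 0.539). Tsc22d3, which encodes the glucocorticoid-induced leucine zipper protein GILZ, was at 100.1 and 178 FPKM against 22.0 and 58.0 (log2 difference 1.87, SE 0.48, limma adjusted p = 0.434). Fkbp5, a cochaperone that restrains the receptor, was at 33.2 and 83.0 FPKM against 22.6 and 21.7. In these 3 genes the second MSM-mother mouse was the highest. Tat, the tyrosine aminotransferase gene, was at 749 and 1424 FPKM against 403 and 625. Dusp1, a phosphatase of stress kinases, was at 11.2 and 28.7 FPKM against 4.87 and 7.90. Klf9 was at 41.8 and 43.5 FPKM against 28.2 and 36.9. These genes, too, did not overlap between the crosses. Tdo2, which degrades tryptophan, and Cebpd, a transcription factor gene, were chosen after their values were seen, as the genes of the list with the lowest p. Tdo2 was at 1178 and 1442 FPKM against 706 and 733 (log2 difference 0.86, SE 0.19, limma adjusted p = 0.354), and Cebpd was at 3.99 and 4.23 against 0.901 and 1.99 (log2 difference 1.10, SE 0.23, adjusted p = 0.347). The metallothionein genes Mt1, at 1354 to 2019 FPKM, and Mt2, at 1305 to 1638, overlapped between the crosses, with log2 differences of 0.01 and 0.11.

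**Figure D3:**
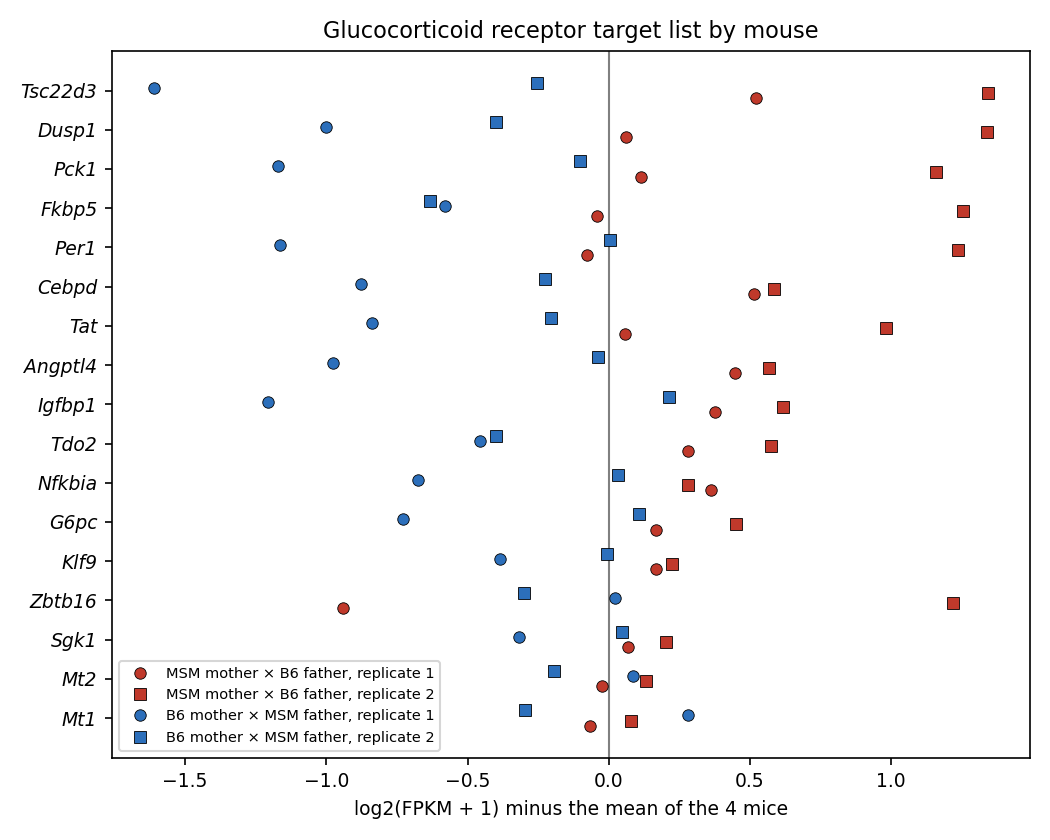
Level of each of the 17 glucocorticoid receptor targets in each mouse as log2(FPKM + 1) minus the mean of the 4 mice, with color for the cross and shape for the replicate. In 13 of 17 genes both MSM-mother points lie to the right of both B6-mother points, while Mt1, Mt2, Zbtb16 and Per1 overlap.

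The inverted element read by the glucocorticoid receptor, with the letters GNACA, any 3 bases and then TGTNC (its own reverse complement, so it reads alike on either strand), was searched in the same promoter windows. It was in 2 of the 22 windows of the 14 targets matched by symbol, with 0.475% of all windows holding it. It was in 0 of the 13 windows of the 8 matched receptors. The stretches below are those of the matched targets, with the element in capitals, at chr8:94178971-94179030 (plus strand) for Mt1 and chr10:21993678-21993737 (plus strand) for Sgk1.
Mt1: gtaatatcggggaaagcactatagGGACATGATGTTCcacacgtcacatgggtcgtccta
Sgk1: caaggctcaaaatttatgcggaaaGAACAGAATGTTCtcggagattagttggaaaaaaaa
These elements began 94 and 188 bases before the start. Both genes were among the least different of the list, with log2 differences of 0.01 for Mt1 and 0.27 for Sgk1.

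Next, the balance of the alleles was examined in the 3 receptors with a B6-allele frequency. For Nr1i2 the B6-allele frequency was 0.449 and 0.490 in the MSM-mother mice and 0.459 and 0.471 in the B6-mother mice (0.467 ± 0.0178, SD, n = 4). It was below 0.5 in 4 of 4 mice, as in 22.8% of genes with a frequency. Nr5a2 was at 0.516 and 0.483 in the MSM-mother mice and 0.512 and 0.532 in the B6-mother mice (0.511 ± 0.020). Nr3c1 was at 0.494 and 0.461 in the MSM-mother mice and 0.508 and 0.493 in the B6-mother mice (0.489 ± 0.0202). The alleles of Nr5a2 and Nr3c1 lay on both sides of 0.5.

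The test of imbalance compares the log2 odds of the B6 allele with 0, averaged over the crosses. None of the 3 receptors was called, with 36.2% of genes called by limma at an adjusted p under 0.05 (22.6% toward B6 and 13.6% toward MSM), and 1 of 3, Nr1i2, had an unadjusted p under 0.05 by limma, just under that level, as did 49.1% of genes. For Nr1i2 the log2 odds were -0.19 (SE 0.06, limma adjusted p = 0.102), and the interval of the frequency had its lower end at 0.435 and its upper end at about 0.5. For Nr5a2 the log2 odds were 0.06 (SE 0.06, limma adjusted p = 0.460, interval of the frequency 0.480 to 0.541). For Nr3c1 they were -0.06 (SE 0.06, limma adjusted p = 0.442, interval of the frequency 0.459 to 0.519). The absolute log2 odds of Nr5a2 and Nr3c1 were above those of 13.7% and 14.2% of genes, and those of Nr1i2 above 41.4%. The median frequency of all genes was 0.510.

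The frequencies were also compared between the reciprocal crosses, to ask about parental origin. None of the 3 receptors was called between the crosses, beside 0.0826% of genes by limma at an adjusted p under 0.05 (0.0275% higher and 0.0551% lower with an MSM mother), and none had an unadjusted p under 0.05 (5.23% of genes). The mice of the crosses overlapped in all 3 receptors, while they did not overlap in 34.3% of genes. The cross difference in log2 odds, MSM mother minus B6 mother, was 0.03 for Nr1i2 (95% interval -0.35 to 0.41), -0.13 for Nr5a2 (-0.48 to 0.23) and -0.14 for Nr3c1 (-0.48 to 0.21).

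The 3 receptors with a frequency lay in parts of the genome where most listed genes had one: 18 of the 20 nearest listed genes for Nr1i2, 17 for Nr5a2 and 19 for Nr3c1. For the receptors without a frequency these counts were 2 of 20 for Nr1i3, 1 of 20 each for Rxra and Nr1h3, 0 of 20 each for Ppara and Thrb and 0 of 12 for Esr1. Among the 10 nearest genes with a frequency, 5 on each side, 3 were called for Nr1i2, 5 for Nr5a2 and 4 for Nr3c1, near the 36.2% called among all genes. Close to Nr1i2, Pla1a, a phosphatidylserine phospholipase gene, was at 0.645 ± 0.0196 with starts 148 kb apart. Timmdc1, an assembly factor of mitochondrial complex I, was at 0.593 ± 0.0304 and Poglut1, a glucosyltransferase of Notch, at 0.441 ± 0.0171. Near Nr5a2, the called genes included Ddx59 at 0.351 ± 0.0869 with starts 427 kb apart, Nek7 at 0.581 ± 0.0163, Tmem9 at 0.584 ± 0.0261 and 2310009B15Rik at 0.684 ± 0.0369. Near Nr3c1 they were Gnpda1 at 0.397 ± 0.0251, Lars at 0.423 ± 0.0255, Ndfip1 at 0.442 ± 0.0307 and Fgf1 at 0.663 ± 0.0144 with starts 572 kb apart.

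**Figure D4:**
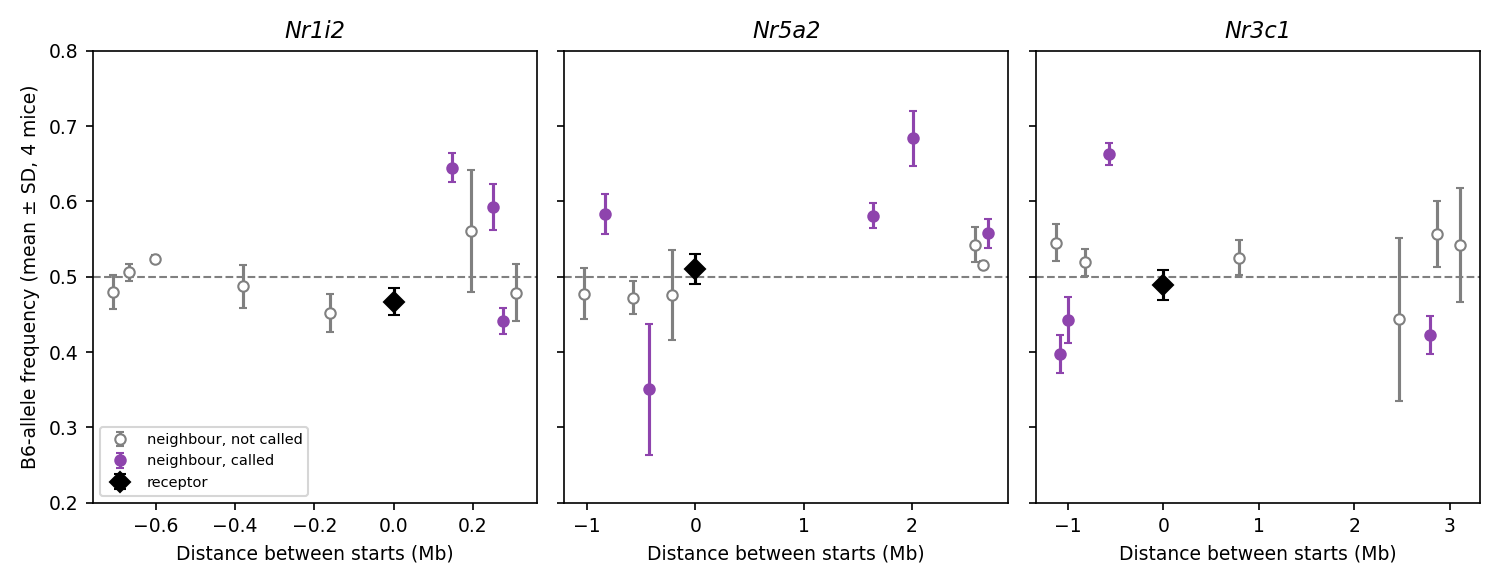
B6-allele frequency (mean ± SD, 4 mice) of Nr1i2, Nr5a2 and Nr3c1 (diamonds) and of the 5 nearest genes with a frequency on each side, by the distance between annotated starts in Mb; filled circles were called by limma. The receptors lie at 0.467, 0.511 and 0.489, while called neighbours lie on both sides of 0.5 in each panel.

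Among the other receptors, coregulators, ligand supply genes, targets and clock genes, 65 had a frequency, and 16 were called toward B6 and 12 toward MSM by limma (22.6% and 13.6% of all genes). Of the 45 targets with a frequency, 12 were called toward B6 and 10 toward MSM. Hnf4a was the called receptor, at 0.542 ± 0.00917 (log2 odds 0.24, SE 0.04, limma adjusted p = 0.0300), and none of the 4 coregulators with a frequency was called. The call of Hnf4a was lost without any 1 of the mice, where its log2 odds were 0.22 to 0.26. It was also lost when the median frequency of each mouse was set to 0.5 and when a term for the replicate number (replicate block) was added.

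Among targets of the xenobiotic and fatty acid sensors, the fatty acid hydroxylase gene Cyp4a14 was at 0.988 or above in all 4 mice (0.992 ± 0.00334, limma adjusted p = 0.000193), while Cyp4a10 of the same family was at 0.424 ± 0.0171. Values of Cyp4a14 above 0.99 were set to 0.99 for the test, so its p leaves out their spread above that limit. The carboxylesterase gene Ces2a was at 0.919 ± 0.00495. Both Cyp4a14 and Ces2a were above the limit of 0.8 that the study set for a biased gene. Cyp3a11 was at 0.265 and 0.232 in the MSM-mother mice and 0.189 and 0.178 in the B6-mother mice (0.216 ± 0.0402), and Cyp2c29 was at 0.394 ± 0.0429. Gstm1, a glutathione transferase gene, was at 0.570 ± 0.0197 and Acadm, the medium-chain acyl-CoA dehydrogenase gene, at 0.538 ± 0.00760. The Cyp, Ces and Gstm genes have similar copies, so that reads of a copy could be assigned to the wrong gene, and their values are uncertain.

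Cyp8b1, the sterol 12-alpha-hydroxylase gene of bile acid synthesis and an LRH-1 target, was at 0.164 and 0.145 in the MSM-mother mice and 0.247 and 0.239 in the B6-mother mice. Its mean of 0.199 ± 0.0519 was just under the limit of 0.2, and its crosses were not called different (limma adjusted p = 0.626). The sterol exporter genes Abcg5 and Abcg8, which form 1 transporter, were called to opposite sides, at 0.555 ± 0.0173 and 0.458 ± 0.0108. Both calls were lost without any 1 of the mice and with the replicate block, and that of Abcg5 also when the median frequency of each mouse was set to 0.5. Of the other LXR and LRH-1 targets, Pltp was at 0.354 ± 0.0160, Scd1 at 0.598 ± 0.00632, Gls2 at 0.569 ± 0.00848 and Scarb1, the HDL receptor gene, at 0.560 ± 0.0219. The thyroid hormone receptor target Dio1 was at 0.660 ± 0.0253 and the retinoid target Dhrs3 at 0.446 ± 0.0183.

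Among the glucocorticoid receptor targets, 3 were called toward B6 and 3 toward MSM of the 10 with a frequency (22.6% and 13.6% of all genes). Fkbp5 was at 0.681 ± 0.0359, Klf9 at 0.587 ± 0.0276 and Pck1 at 0.580 ± 0.00923. Tat was at 0.436 ± 0.0189, Dusp1 at 0.402 ± 0.0460 and Tsc22d3, on the X chromosome, at 0.362 ± 0.0713. The genes with higher levels in MSM-mother mice were thus on both sides of 0.5. Of the 23 named list genes called for imbalance, 4 (Cyp4a14, Ces2a, Cyp3a11 and Cyp8b1) kept the call whichever mouse was left out, and 19 lost it without at least 1 mouse.

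**Figure D5:**
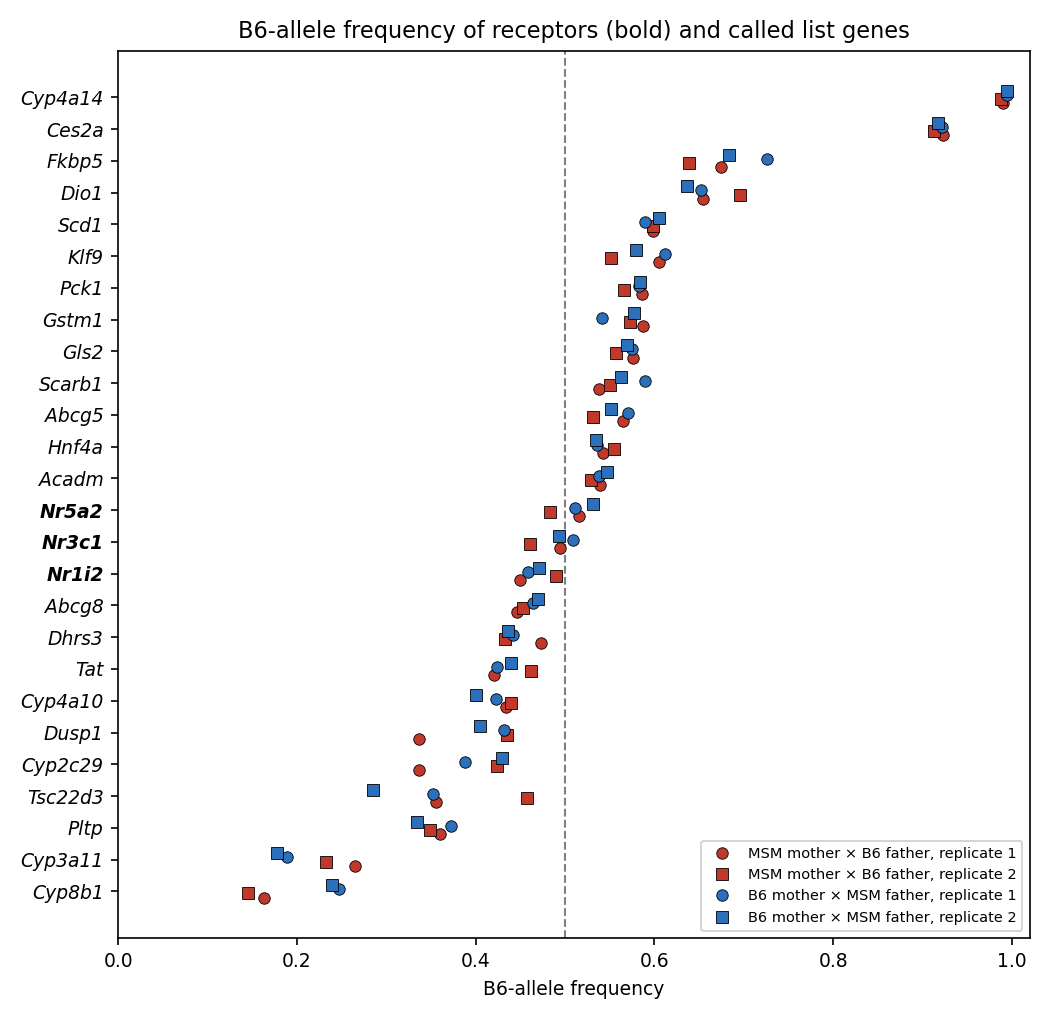
B6-allele frequency in each mouse of the 3 receptors with a frequency (bold) and of the 23 called genes named from the receptor and target lists, ordered by mean, with color for the cross, shape for the replicate and a dashed line at 0.5. The receptors lie between 0.449 and 0.532, and the called genes range from Cyp8b1 at a mean of 0.199 to Cyp4a14 at 0.992.

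Finally, the genes whose levels were closest to each receptor in the 4 mice were found by the root mean square difference in log2(FPKM + 1), over 4 mice only. The closest was Dalrd3 to Nr3c1, with a difference of 0.0263, at 19.4, 21.1, 25.1 and 21.4 FPKM, followed by Plbd2 at 0.0393. For Thrb they were the RNA helicase gene Dhx30 at 0.0363 and the ceramide transfer gene Col4a3bp at 0.0384. For Nr1h3 they were Csnk2b, the regulatory subunit of casein kinase 2, at 0.0425 and Prkcsh at 0.0440, and for Nr5a2 Sepsecs at 0.0463 and Flii at 0.0474. Nr1i2 was closest to Optn at 0.0905 and Atl2 at 0.0993, Esr1 to Bach1 and next to Pitpnm2 at 0.105, Nr1i3 to Hnrnpf at 0.104 and Rsrp1 at 0.121, and Rxra to Slc25a23 at 0.115 and Proz at 0.123. For Ppara they were the sterol exporter gene Abcg8 at 0.150 and Rnf167 at 0.151.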

How the data were processed

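The members and lists were chosen with earlier results of these data known. Per the study's methods, poly(A) RNA libraries (strand-specific, 150-base paired reads) were trimmed with Trim Galore (quality 30, minimum length 30) and aligned with TopHat2 to mm10 masked at polymorphic sites, keeping 1 alignment per read; alleles were separated with SNPsplit and counted per gene with Cuffdiff. The authors deposited, for each mouse, FPKM per gene and the B6-allele frequency as a fraction (blank for genes without one); the program behind the FPKM is not stated apart from Cuffdiff. The deposited FPKM summed to 529024 to 671875 per mouse; depth per gene is unknown, so no counting interval is given.

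Expression was compared between crosses with limma 3.58.1 (R 4.3.3) on log2(FPKM + 1), which understates changes of low genes, keeping genes whose mean FPKM reached 1 (the lowest listed mean was 2.50). Frequencies limited to 0.01 to 0.99 were tested as log2 odds with limma. In each fit the variance of a gene was moderated toward that of other genes, so SE, intervals and p-values rest in part on those genes. All p-values are two-sided and were adjusted by Benjamini-Hochberg across the genes tested, with 0.05 as the threshold. Equal replicate numbers were not taken to pair mice. The model was run on simulated data with planted differences larger than any estimated for the receptors. That simulation therefore cannot show how well differences of the receptors' size would be found.

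Positions were taken from GENCODE M21 (8434 genes matched) and promoters from RefSeq. Named were the 9 members, the 3 most abundant genes per list, up to 3 called genes per direction by log2 odds in receptor, coregulator and target lists, called neighbours, and the 2 genes closest to each member. Exceptions are marked in the text. A few genes that this rule names are not reported here. Alternatives changed the pseudocount, filters, normalization, frequency limits and scale, variance trend and replicate block, and left out each mouse.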

Additional observations from a re-analysis of the deposited data

Results flagged for a closer look

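Of 35 sets of 4 mice tested, 1 held a mouse far from the others, and chance gives about 1 in 20 sets. The B6-allele frequency of Pck1 was 0.566 in the second MSM-mother mouse and 0.586, 0.583 and 0.583 in the other mice, a gap of 0.864 of the whole range, above the critical value of Dixon for 4 values.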

How the results depend on the processing

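No member was called under any of the 12 settings for expression or the 10 for alleles, and 160 of 168 alternative values of single members kept their direction. The 8 reversed values all came from leaving out a mouse. Without a mouse the cross difference ranged from -0.42 to 0.014 for Ppara (above 0 without B6-mother replicate 2), -0.33 to 0.13 for Rxra and -0.14 to 0.086 for Thrb (both above 0 without MSM-mother replicate 1), -0.022 to 0.28 for Nr1i3 (below 0 without B6-mother replicate 1) and -0.063 to 0.042 for Nr1h3 (above 0 without MSM-mother replicate 2 or B6-mother replicate 1). The cross difference in log2 odds of Nr1i2 ranged from -0.091 to 0.15, below 0 without MSM-mother replicate 2 or B6-mother replicate 1. A lone mouse of a cross was assumed to vary like the others. 

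The correlation across genes of the within-cross differences of mice with equal replicate numbers was 0.00375 for expression and 0.146 for log2 odds, and no source says that a number marks a shared batch, so the mice were not paired. With a replicate block, 285 in place of 4 genes were called between crosses, 9 in place of 0 glucocorticoid receptor targets, and 775 in place of 1316 genes for imbalance, with 10 of the 23 named list genes losing the call; the cause was not tested, and the block changed no call of a member. Without a mouse, 13 to 21 genes were called between crosses, 0 to 1 glucocorticoid receptor targets were called and 2 to 11 of these had an unadjusted p under 0.05. For imbalance 181 to 514 genes were then called, and 0 to 6 for frequency between crosses; fewer mice leave fewer degrees of freedom. Wider limits on the frequency, 10 times closer to 0 and 1, left 1 in place of 3 genes called for frequency between crosses. Of 230 alternative imbalance values of the other named genes, 150 kept the call, 80 lost it and 0 reversed. A median frequency of 0.5 in each mouse ended the calls of Abcg5, Acadm and Hnf4a. It moved the log2 odds of Nr1i2 from -0.19 to -0.25 (limma adjusted p = 0.0593), which was still not called. The unknown depth limits what the values of Esr1 and other genes with low expression can show.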
